A study of Mus musculus with 6 samples.

Results

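Genes of the integrated stress response to amino acid shortage and of the unfolded protein response of the endoplasmic reticulum (ER) were examined in Hira-null and wild-type (WT) mouse embryonic stem (ES) cells. The set was a list of 34 genes chosen by function, of which 22 belong to an ATF4 and amino acid branch and 12 to an ER chaperone and unfolded protein response branch. A probe set with a single gene symbol was found for 33 of them. Aars, an alanyl-tRNA synthetase gene, had no probe set with a single gene symbol and was not measured on its own. Slc7a11, the cystine transporter gene, lay below the filter on low values, with 2.78, 2.95 and 3.13 in Hira-null arrays against 2.90, 2.69 and 2.91 in WT arrays. The other 32 members were tested among 15199 genes, 20 in the ATF4 branch and all 12 in the ER branch.

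The mutant line was Cl34, labelled Hira-/-, and it was compared with the parental WT line w9.5, with 3 Affymetrix Mouse Gene 1.0 ST arrays each. HIRA is a chaperone that places the histone variant H3.3 on DNA outside replication. Only 1 mutant line was measured, so loss of Hira and other differences between the lines cannot be told apart. Both lines were grown undifferentiated in KnockOut DMEM with 15% fetal calf serum, 1% Glutamax, 1% MEM non-essential amino acids, 0.1 mM beta-mercaptoethanol and 1% ESGRO (leukaemia inhibitory factor). Cells were collected at different confluence according to the design text, and no label ties a confluence to an array. All values are deposited log2 values or differences of them, so a difference of 1 is a doubling. Hira itself read 7.40, 7.05 and 6.81 in Hira-null arrays against 7.49, 7.86 and 7.83 in WT arrays (difference -0.64, SE 0.19, limma adjusted p = 0.352), and the deleted stretch of Hira is not given in the labels, so how well the probe set checks the labels is unknown. All 10 pluripotency markers checked were above the filter in every array, with a lowest value of 7.36. Hira-null replicate 3 stood apart from the rest: 4.96% of genes lay at least 1 log2 unit away from the mean of the other 2 arrays of its line, against 0.217% to 1.7% for the other 5 arrays.

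As background, kinases that sense uncharged tRNA, unfolded ER proteins, viral RNA or lack of haem phosphorylate the initiation factor eIF2. General translation then slows while the mRNA of the transcription factor ATF4 is translated more, and ATF4 acts with C/EBP-family partners on genes for amino acid uptake, amino acid synthesis, tRNA charging and stress signalling. In the ER, the sensors IRE1 (gene Ern1) and ATF6 raise chaperone and degradation genes, IRE1 by splicing the mRNA of Xbp1 and ATF6 by its own release from the membrane. ATF4 and ATF6 are controlled largely above the mRNA level, so their transcripts say little of their activity. Probe sequences were not examined, so spliced and unspliced Xbp1 were not separated here.

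Promoter windows of RefSeq (GRCm38.p6), from 250 bases before to 50 after a gene's start, were available for 30 of the 34 members. The C/EBP-ATF response element was searched as TGATGNAA on both strands (TTNCATCA on the other), and it was present in the windows of 8 of 19 ATF4-branch members and 1 of 11 ER-branch members, against 4.51% of all 27025 genes with a window. The sites of the measured carriers are shown because they include Atf3 and Nupr1, which differed widely between Hira-null arrays, and Asns and Gars, which varied less. Capitals mark the match, and each run reads along the strand of the gene.
Atf3, chr1:191183422-191183457, minus strand: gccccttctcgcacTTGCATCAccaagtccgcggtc
Nupr1, chr7:126625559-126625594, minus strand: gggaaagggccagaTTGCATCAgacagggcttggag
Trib3, chr2:152344029-152344056, minus strand: tagctcaggtTTACATCAgccgggcggg
Chac1, chr2:119351035-119351070, plus strand: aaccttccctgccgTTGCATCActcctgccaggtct
Asns, chr6:7693211-7693246, minus strand: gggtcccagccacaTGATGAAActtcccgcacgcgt
Gars, chr6:55037957-55037992, plus strand: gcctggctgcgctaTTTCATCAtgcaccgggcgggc
Herpud1, chr8:94386303-94386338, plus strand: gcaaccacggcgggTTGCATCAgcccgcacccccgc
Slc7a11 and Aars also held it. No match was found in the windows of Ddit3 and Cebpb, which says only that these letters are absent there. The windows of Slc7a3, Slc7a5, Atf6 and Wars were not analysed here. The ER stress response element, searched on both strands as CCAAT, any 9 bases and CCACG, was found in 3 of 11 ER-branch windows and 0 of 19 ATF4-branch windows, against 0.137% of all genes. It was searched because the ER chaperone genes are its classical carriers, it did not overlap the other motif in any member, and Hsp90b1 held a second match on the other strand.
Hspa5, chr2:34772011-34772057, plus strand: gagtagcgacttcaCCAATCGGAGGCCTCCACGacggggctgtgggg
Hsp90b1, chr10:86705624-86705670, minus strand: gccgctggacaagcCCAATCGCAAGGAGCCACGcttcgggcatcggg
Calr, chr8:84847061-84847107, minus strand: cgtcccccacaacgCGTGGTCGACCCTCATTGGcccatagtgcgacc
The motifs TGACGTGG (bound by XBP1 and ATF6) and TGACGTCA (the cAMP response element) were found in none of these windows, against 0.714% and 2.03% of all genes. A match is a run of letters and was not tested for binding.

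No member differed between the lines at an adjusted p under 0.05. With limma over 25142 probe sets, 0 of 32 members passed, against 0.00398% of all probe sets (1 probe set). At an unadjusted p under 0.05 there were 3 members lower in Hira-null arrays and 0 higher, against 6.29% and 4.17% of the 15199 genes. These 3 were Xbp1, the serine synthesis gene Phgdh and the mannosidase-like degradation gene Edem1, against 10.5% of all genes in either direction, so the share of members is near the background. Hira-null and WT arrays did not overlap for 4 members lower in Hira-null (Xbp1, Phgdh, Edem1 and Sdf2l1) and 2 higher (Atf5 and Atf6), against 9.55% and 7.8% of all genes. These 6 of 32 members stand beside 17.4% of all genes in either direction. The median difference was 0.12 over the 20 ATF4-branch genes, with 12 higher and 8 lower, and -0.03 over the 12 ER-branch genes, with 5 higher, 6 lower and 1 equal, against -0.01 over all genes. The ATF4-branch median turned to -0.16 without Hira-null replicate 3.

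**Figure D1:**
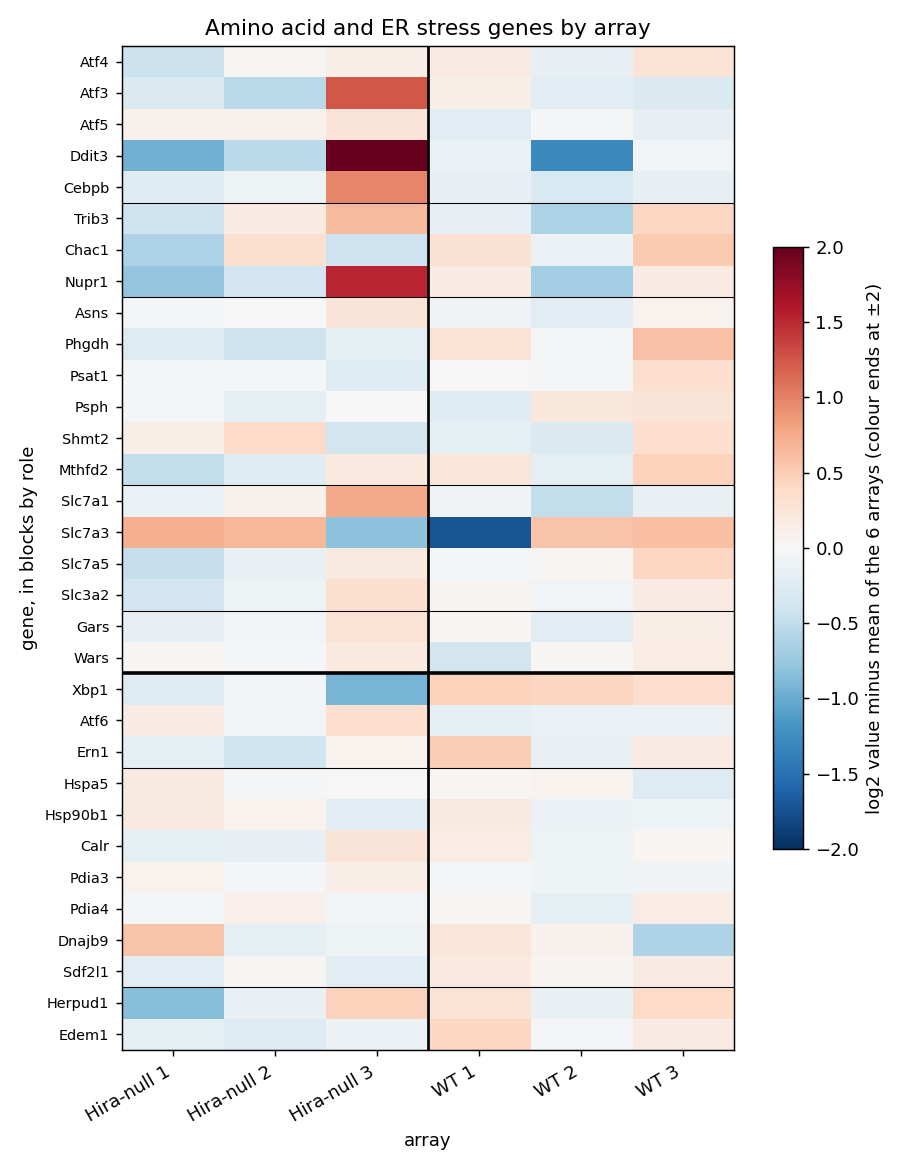
Heat map of the 32 members tested (rows, in blocks by role, ATF4 branch above the thick line and ER branch below it) over the 6 arrays (columns, Hira-null left, WT right). Colour is the log2 value minus the gene's mean over the 6 arrays and ends at ±2; Ddit3, Nupr1, Atf3 and Cebpb are highest in Hira-null replicate 3, and Slc7a3 is lowest in WT replicate 1.

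The largest log2 differences among the members lay between arrays of one line. Ddit3, which encodes CHOP, a C/EBP-family factor of prolonged stress, read 5.21, 5.63 and 9.17 in Hira-null arrays against 6.05, 4.88 and 6.12 in WT arrays. Hira-null replicate 3 was 3.75 log2 units, or 13.5-fold, above the mean of the other 2 Hira-null arrays. Of the 15199 genes tested, 0 had a larger upward difference in that array, while Hira-null replicates 1 and 2 lay within the range of the WT arrays. Its SD within lines was 1.62, and 2 genes had a larger one. The line difference was 0.99 (SE 1.00, limma adjusted p = 0.828) with all arrays and -0.26 without Hira-null replicate 3.

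Nupr1, a small chromatin-associated stress protein gene, followed the same order of arrays within the Hira-null line. It read 5.69, 6.09 and 7.99 in Hira-null arrays against 6.64, 5.79 and 6.63 in WT arrays. Hira-null replicate 3 was 2.10 above the other 2, a difference exceeded by 0.243% of genes. Atf3, a stress-induced repressor of the ATF/CREB family, read 5.53, 5.28 and 7.06 in Hira-null arrays against 5.94, 5.61 and 5.53 in WT arrays, and Hira-null replicate 3 was 1.66 above the other 2. Cebpb, a C/EBP factor of stress and inflammation, read 5.74, 5.89 and 6.96 in Hira-null arrays against 5.83, 5.68 and 5.83 in WT arrays, and Hira-null replicate 3 was 1.15 above the other 2. For all 3 genes the lines overlapped, and the array labelled Hira-null replicate 3 was the highest of the 6. Their line differences were 0.24 (SE 0.59), 0.26 (SE 0.45) and 0.42 (SE 0.31), with limma adjusted p of 0.942, 0.913 and 0.739. Without Hira-null replicate 3 they were -0.46, -0.29 and 0.04. In all, 4 of 32 members lay at least 1 unit above the other 2 arrays in Hira-null replicate 3, against 2.76% of all genes, and 1 lay at least 1 unit below, against 2.2%. Their low counterparts lay in the other Hira-null arrays, where Ddit3, Nupr1 and Herpud1 were at least 1 unit below the other 2 in replicate 1 (3 of 32, against 0.441% of genes) and Ddit3 and Atf3 in replicate 2 (2 of 32, against 0.618%). These counts follow in part from the high values in replicate 3, since each array is set against the other 2. No member was at least 1 unit above in Hira-null replicates 1 and 2, against 0.776% and 0.171% of genes.

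In WT arrays such differences came from Slc7a3 and Ddit3 alone. In WT replicates 1, 2 and 3, 0, 1 and 1 members were at least 1 unit above the other 2, against 1.2%, 0.204% and 0.0855% of genes, and 1, 1 and 0 were at least 1 unit below, against 0.507%, 0.355% and 0.132%. The member below in WT replicate 2 was Ddit3, at a difference of -1.21, and the others were Slc7a3.

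**Figure D2:**
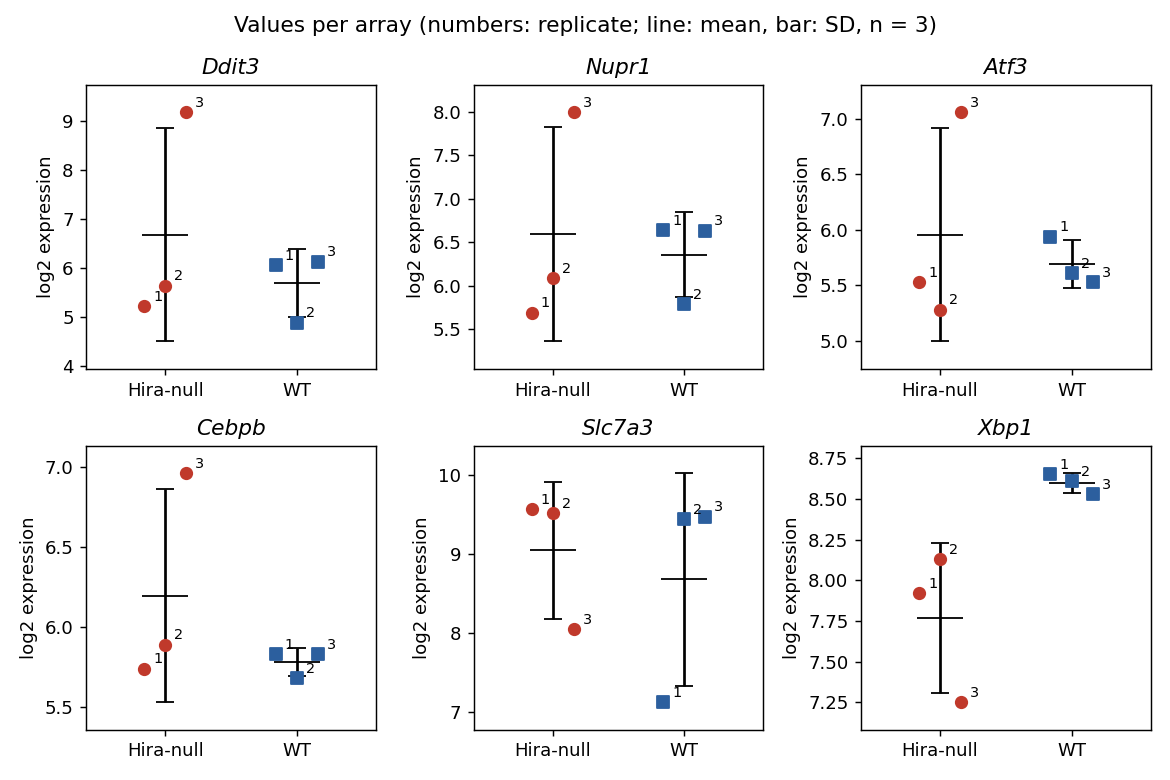
Log2 expression (y axis, a separate range in each panel) of 6 members in the 3 Hira-null arrays (red circles, left) and 3 WT arrays (blue squares, right), with the replicate number beside each point, the mean as a line and the SD as a bar. Ddit3, Nupr1, Atf3 and Cebpb have 1 high point, Hira-null replicate 3; Slc7a3 is low in WT replicate 1 and Hira-null replicate 3; the lines do not overlap for Xbp1.

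Atf4 itself did not share this size of difference. Its transcript read 7.48, 7.93 and 8.04 in Hira-null arrays against 8.06, 7.74 and 8.17 in WT arrays, a line difference of -0.17 (SE 0.20, limma adjusted p = 0.855). Trib3, a pseudokinase gene induced by ATF4 and CHOP, read 6.52, 7.10 and 7.57 in Hira-null arrays against 6.76, 6.30 and 7.34 in WT arrays, so replicate 3 was the highest array of each line (line difference 0.26, SE 0.34). Chac1, a glutathione-degrading enzyme gene of the same pathway, read 5.47, 6.41 and 5.68 in Hira-null arrays against 6.40, 5.97 and 6.62 in WT arrays (line difference -0.48, SE 0.28). Chac1 thus differed by -0.26 from the other 2 arrays in Hira-null replicate 3, opposite in sign to Ddit3. Its window holds the same element as those of Atf3 and Nupr1, and the part of that element in these values was not tested. Atf5, a related factor of the mitochondrial and amino acid stress responses, varied little within lines and did not overlap between them. It read 6.45, 6.46 and 6.63 in Hira-null arrays against 6.16, 6.33 and 6.20 in WT arrays (difference 0.28, SE 0.12, limma adjusted p = 0.506).

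Within each line, most ATF4-branch genes were high in replicate 3. In Hira-null replicate 3, 16 of 20 ATF4-branch genes were above the mean of the other 2 Hira-null arrays, against 50% of all genes (exceptions Chac1, Psat1, Shmt2 and Slc7a3). In WT replicate 3, 18 of 20 were above the other 2 WT arrays, against 47.3% of all genes (exceptions Atf3 and Atf5). The counts were 5 and 6 of 20 in Hira-null replicates 1 and 2, against 44.9% and 52.9% of genes, and 12 and 4 of 20 in WT replicates 1 and 2, against 51.3% and 49.2%. Hira-null replicate 3 alone was the highest of all 6 arrays for 11 of 20, against 24.6% of genes, and WT replicate 3 for 7 of 20, against 11.8%. No label says that arrays with the same number belong together. The branch medians, as deviations from the mean of the 6 arrays, were -0.26, -0.05 and 0.23 in Hira-null arrays and -0.04, -0.17 and 0.21 in WT arrays. The lines thus overlapped, and the spread between arrays of a line exceeded the difference between lines. In the ER branch, 6, 5 and 6 of 12 genes were above in Hira-null replicates 1, 2 and 3, and 11, 4 and 5 of 12 in WT replicates 1, 2 and 3. The ER-branch count was thus highest in WT replicate 1 (11 of 12, against 51.3% of all genes). Atf6 was the exception there, and the differences were small, from 0.04 for Pdia4 to 0.50 for Dnajb9 among the 11. This was not particular to the branch, as 21 of 31 other ER folding, export and degradation genes were also above there. Among the 8 other lists described below, the counts in WT replicate 1 ran from 3 of 11 cytosolic heat shock genes to 11 of 14 other amino acid transporters. The ER-branch counts moved with the scaling, to 8 of 12 in Hira-null replicate 3 with quantile normalization and to 8 of 12 in WT replicate 3 with median centring. WT replicate 1 had 11 and 10 of 12 with these. The median SD within lines was 0.31 in the ATF4 branch and 0.18 in the ER branch, against 0.20 over all genes. Within lines, 7 of 20 ATF4-branch genes and 2 of 12 ER-branch genes (Dnajb9 and Herpud1) had an SD above the 90th percentile of all genes (0.42), where 10% of genes lie.

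The enzymes of serine, one-carbon and asparagine synthesis had lower Hira-null than WT means for 4 of 6 genes, and none passed. Phgdh, the first enzyme of serine synthesis, read 7.33, 7.18 and 7.41 in Hira-null arrays against 7.88, 7.57 and 8.18 in WT arrays. Every Hira-null array lay below every WT array, 1.48-fold lower on average (log2 difference -0.57, SE 0.18, limma adjusted p = 0.372), with a difference of -0.62 without Hira-null replicate 3. Psat1 and Psph, which complete serine synthesis, stood at -0.21 (SE 0.15) and -0.15 (SE 0.17). Mthfd2, the mitochondrial folate enzyme gene, stood at -0.35 (SE 0.23), while Shmt2, which moves the serine carbon onto folate, stood at 0.10 (SE 0.25) and Asns, asparagine synthetase, at 0.14 (SE 0.14). The lines overlapped for these 5. Shmt2 was highest in Hira-null replicate 2 (8.95) and lowest in Hira-null replicate 3 (8.21), the array in which Ddit3, Nupr1, Atf3 and Cebpb were highest. WT replicate 3 was the highest of the WT arrays for all 6 enzymes, and 0.21 to 0.58 above the other 2.

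Among the transporters, Slc7a3, an arginine and lysine carrier gene on chromosome X, had the second widest swing of the members. It read 9.57, 9.52 and 8.05 in Hira-null arrays against 7.13, 9.44 and 9.47 in WT arrays. WT replicate 1 differed by -2.33 from the mean of the other 2 WT arrays, or 5.01-fold, and 0 of 15199 genes had a larger downward difference in that array. Hira-null replicate 3 differed by -1.5 from the other 2 Hira-null arrays, a drop exceeded by 0.401% of genes. The other 4 arrays lay between 9.44 and 9.57, so a low value occurred once in each line. The line difference was 0.37 (SE 0.71, limma adjusted p = 0.923), and -0.41 without WT replicate 1. Slc7a1, the paralogous cationic amino acid carrier gene, went the other way in Hira-null replicate 3. It read 7.63, 7.84 and 8.51 in Hira-null arrays against 7.68, 7.27 and 7.61 in WT arrays (difference 0.47, SE 0.25, limma adjusted p = 0.592, and 0.21 without Hira-null replicate 3). Slc7a5 and Slc3a2, the light and heavy chains of the large neutral amino acid carrier, stood at -0.28 (SE 0.21) and -0.11 (SE 0.20), and both were lowest in Hira-null replicate 1, at 9.28 and 10.17. Gars and Wars, glycyl- and tryptophanyl-tRNA synthetase genes, stood at 0.04 (SE 0.17) and 0.13 (SE 0.17).

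In the ER branch the difference with the smallest p was that of Xbp1. It read 7.92, 8.13 and 7.25 in Hira-null arrays against 8.65, 8.61 and 8.53 in WT arrays, and the lines did not overlap. The means were 7.77 ± 0.46 in Hira-null and 8.60 ± 0.06 in WT arrays (SD, n = 3 each), 1.78-fold lower in Hira-null (log2 difference -0.83, SE 0.23, limma adjusted p = 0.321). Without Hira-null replicate 3 the difference was -0.57. Xbp1 lies on chromosome 11, whose 1351 genes had a median difference of -0.24, and 33.2% of them were lower in every Hira-null array than in any WT array. On that chromosome 40 genes (2.96%) stood below Xbp1, and with each array centred on the median of the gene's chromosome Xbp1 was at -0.61.

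The other 4 members on chromosomes 8 and 11 also had negative differences, smaller than that of Xbp1. Chromosome 8 had a median of -0.27 over 809 genes, of which 35.5% were lower in every Hira-null array than in any WT array. Its members were Slc7a5 (-0.28), Herpud1 (-0.35), an ER membrane gene of protein degradation, and Calr (-0.06), a lectin chaperone gene, and the lines overlapped for all 3. Herpud1 was at -0.01 without Hira-null replicate 1 and at -0.68 without Hira-null replicate 3, and Slc7a5 at -0.12 and -0.44. On chromosome 11, Ern1, the IRE1 sensor gene, read 5.75, 5.56 and 6.02 in Hira-null arrays against 6.45, 5.81 and 6.12 in WT arrays (difference -0.35, SE 0.20). Centred on the chromosome, Slc7a5, Herpud1, Calr and Ern1 stood at -0.04, -0.11, 0.19 and -0.13. Without the members on these chromosomes the ER-branch median was 0.06 over 8 genes and the ATF4-branch median 0.13 over 19. Herpud1 had the array order of the ATF4-branch medians within each line. It read 6.26, 6.97 and 7.58 in Hira-null arrays against 7.41, 6.97 and 7.49 in WT arrays. Herpud1 is the ER-branch gene whose window holds the C/EBP-ATF element. Chac1 holds it too and differed by -0.26 from the other 2 arrays in Hira-null replicate 3. Whether the element has a part in the order of arrays was not tested.

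**Figure D3:**
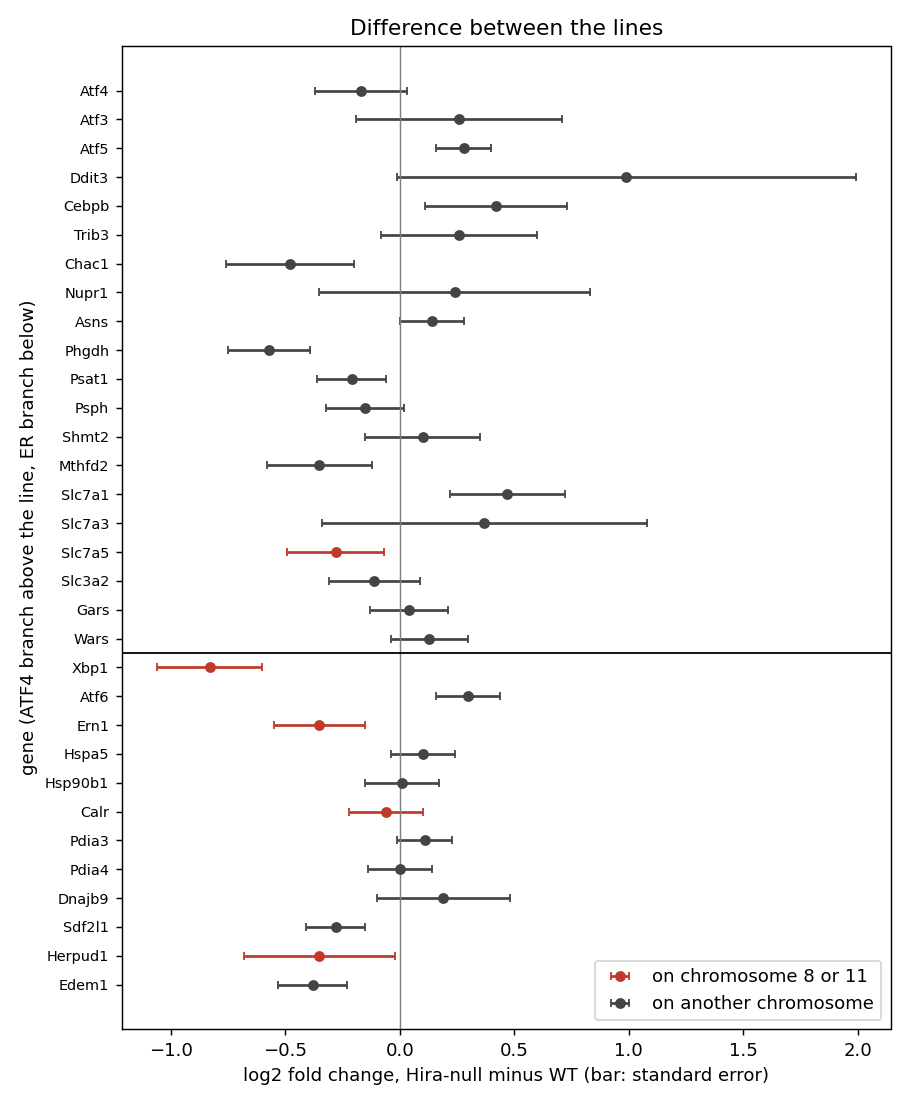
Log2 fold change, Hira-null minus WT (x axis, bars are the standard error from limma), of each member tested (y axis, ATF4 branch above the line), in red for genes of chromosomes 8 and 11. All 5 red points lie below 0, with Xbp1 farthest at -0.83, and Ddit3 has the widest bar (SE 1.00).

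The ER chaperones and folding enzymes had a median difference of 0.01 over 7 genes, and none passed. Hspa5 (BiP), the main ER chaperone gene, read 10.50, 10.30 and 10.32 in Hira-null arrays against 10.36, 10.40 and 10.07 in WT arrays (difference 0.10, SE 0.14, limma adjusted p = 0.895). Hsp90b1, the ER form of HSP90, stood at 0.01 (SE 0.16) and Pdia3, a thiol oxidoreductase gene, at 0.11 (SE 0.12). Pdia4, a related oxidoreductase gene, was equal at 0 (SE 0.14), and its other probe set stood at 0.14 (SE 0.12). In Hira-null replicate 3, where Ddit3 was 3.75 above the other arrays of its line, Hspa5 and Hsp90b1 differed from them by -0.08 and -0.35 and Calr by 0.43. These 3 genes hold the ER stress response element printed above. Dnajb9, a co-chaperone gene and target of XBP1, was highest in Hira-null replicate 1 (7.42) and lowest in WT replicate 3 (6.24), with a difference of 0.19 (SE 0.29).

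Other ER genes with small spread did separate the arrays of the lines without passing the test. Such separation in either direction was seen for 17.4% of all genes. Edem1 read 7.17, 7.11 and 7.26 in Hira-null arrays against 7.79, 7.35 and 7.54 in WT arrays (difference -0.38, SE 0.15, limma adjusted p = 0.457). Sdf2l1, a BiP-associated folding factor gene, read 7.09, 7.33 and 7.10 in Hira-null arrays against 7.51, 7.36 and 7.48 in WT arrays (difference -0.28, SE 0.13, limma adjusted p = 0.534). Atf6 read 7.40, 7.18 and 7.58 in Hira-null arrays against 7.04, 7.10 and 7.12 in WT arrays (difference 0.30, SE 0.14, limma adjusted p = 0.538). Edem1, Sdf2l1 and Atf6 lie on chromosomes 6, 16 and 1. Edem1 and Sdf2l1 were lower in Hira-null, whereas Atf6 was higher.

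A further 141 genes of the same pathways and of neighbouring stress responses were placed in 8 lists, and 127 were tested. None passed at an adjusted p under 0.05 (limma, smallest adjusted p = 0.233). At an unadjusted p under 0.05, 13 of 127 were lower and 8 of 127 higher in Hira-null arrays, beside 6.29% and 4.17% of all genes. Of the 13 lower genes, 10 lie on chromosomes 8 and 11, which hold 24 of the 127, and 0 of the 8 higher genes do. The eIF2 kinases and eIF2 factors had a median of 0.02 over 16 genes, the other tRNA synthetases 0 over 16 and the other amino acid transporters -0.02 over 14. The other serine, one-carbon and amino acid enzymes had -0.02 over 14, the cytosolic heat shock genes 0 over 11 and the NRF2 oxidative stress genes -0.06 over 13. The other ATF4-associated stress genes had -0.07 over 12, and the other ER folding, export and degradation genes -0.17 over 31, of which 22 were lower. Of all 15199 genes, 7714 were lower, and 5 of these 31 ER genes lie on chromosomes 8 and 11.

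The genes named next are among the 3 of their list with the smallest unadjusted p, and none passed at an adjusted p under 0.05. Their relation to the members was not tested. Ppp1r15b, a subunit of the phosphatase that reverses eIF2 phosphorylation, stood at 0.34 (SE 0.13). Cebpg, a C/EBP partner of ATF4, stood at 0.43 (SE 0.14). Its values were higher in all 3 Hira-null arrays than in any WT array, as for 7.8% of all genes. Cth, the cysteine-forming cystathionine gamma-lyase gene, read 8.88, 9.04 and 9.33 in Hira-null arrays against 6.92, 8.21 and 8.44 in WT arrays. It was 1.23 higher in Hira-null (SE 0.39, limma adjusted p = 0.372), and WT replicate 1, low for Slc7a3, was also the low array for Cth. P4hb, the protein disulfide isomerase gene on chromosome 11, stood at -0.65 (SE 0.13), and Derl3, a gene of ER protein retrotranslocation, at 0.69 (SE 0.19). Kars and Farsa, lysyl- and phenylalanyl-tRNA synthetase genes, and Slc7a6, a cationic amino acid exchanger gene, all on chromosome 8, stood at -0.51 (SE 0.13), -0.46 (SE 0.13) and -0.64 (SE 0.18).

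Counts of genes above the other 2 arrays of the line, given here beside 50% of all genes in Hira-null replicate 3 and 47.3% in WT replicate 3, differed between these lists. Of the other tRNA synthetases 10 of 16 were above in Hira-null replicate 3 and 16 of 16 in WT replicate 3, and of the other serine, one-carbon and amino acid enzymes 5 of 14 and 14 of 14. Of the other ATF4-associated stress genes 9 of 12 were above in each of these arrays, and 9 of 12 in WT replicate 1 as well. The eIF2 kinases and eIF2 factors had 8 of 16 above in Hira-null replicate 3 and 8 of 16 in WT replicate 3. For the other ER folding, export and degradation genes these counts were 16 and 12 of 31, and for the NRF2 genes 5 and 7 of 13. Of the other amino acid transporters 11 of 14 were above in Hira-null replicate 3 and 7 of 14 in WT replicate 3, with 11 of 14 in WT replicate 1 also. Cytosolic heat shock genes were above in 2 of 11 in Hira-null replicate 3, with a median deviation of -0.45, and in 8 of 11 in WT replicate 3.

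**Figure D4:**
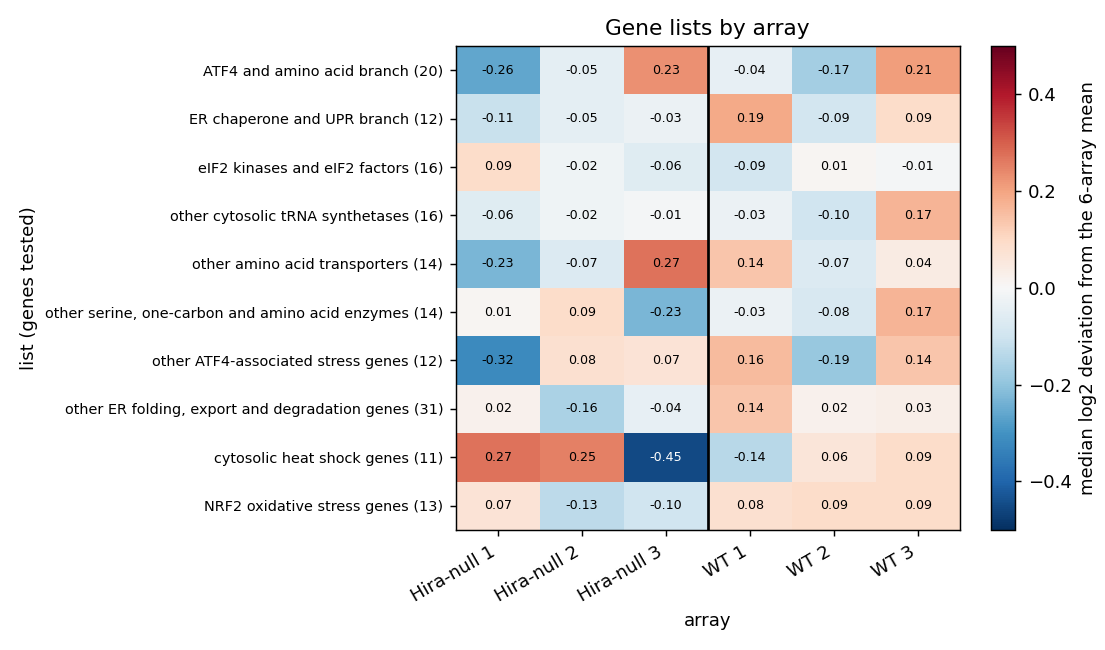
Median log2 deviation from the 6-array mean (colour and printed value) of the 2 branches and the 8 other lists (rows, genes tested in brackets) in each array (columns, Hira-null left). The ATF4 branch is highest in Hira-null replicate 3 (0.23) and WT replicate 3 (0.21), and heat shock genes are lowest in Hira-null replicate 3 (-0.45).

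Marker lists also differed in Hira-null replicate 3. In Hira-null replicate 3, 1 of 10 pluripotency markers was above the other 2 Hira-null arrays, against 50% of all genes. So were 7 of 8 fibroblast and feeder markers and 7 of 7 endoderm markers. Median levels of the fibroblast markers were 5.64 to 6.47 in Hira-null and 5.88 to 6.62 in WT arrays, and those of the endoderm markers 6.02 to 6.51 in Hira-null and 6.36 to 6.91 in WT arrays. Lum, Dcn, Postn, Afp and Ttr were below the filter. In WT replicate 3, where 18 of 20 ATF4-branch genes were above, 5 of 10 pluripotency, 0 of 8 fibroblast and 1 of 7 endoderm markers were, against 47.3% of all genes. WT replicate 1, the low array for Slc7a3, had the highest median level of the fibroblast and of the endoderm markers. There 4 of 10 pluripotency, 8 of 8 fibroblast and 6 of 7 endoderm markers were above the other 2 WT arrays, against 51.3% of all genes. Ddit3 was 0.55 above the other WT arrays in WT replicate 1. It was 0.66 above them in WT replicate 3, where 0 of 8 fibroblast and 1 of 7 endoderm markers were above. The part of these markers in the levels of Ddit3, Nupr1, Atf3, Cebpb and Slc7a3 was not tested, and in bulk RNA more cells of a kind and more RNA per cell cannot be told apart.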

How the data were processed

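Total RNA was extracted with Trizol, labelled with biotin and hybridised to Affymetrix Mouse Gene 1.0 ST arrays, per the labels' protocols. The authors deposited log2 values for 35557 probe sets, and the submitters' processing notes name GCRMA. Values between 1.14 and 14.03 fit a log2 scale. Array medians of 4.93 to 5.02 show prior scaling between arrays, which hides any change common to the majority of genes. Scanner signals were not analysed here, and the build behind the deposited values is not given in the sources used here.

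Probe sets were named from the platform table where it gave 1 symbol (21789), updated by Entrez identifier through a gene table of GRCm38.p6 (21698 matched). Probe sets with at least 3 of 6 arrays above 3.78, the 30th percentile of all values, were kept (25142), and 1 probe set, that of highest mean, stood for each gene. Hira-null minus WT was fitted with limma 3.58.1 (lmFit, eBayes, two-sided) in R 4.3.3 over all 6 arrays, and p-values were adjusted by Benjamini-Hochberg across those probe sets. The fit was also run on simulated data with independent noise, of the same SD in all 6 arrays for a probe set. The real arrays were unequal in spread, so this run does not show how the fit handles Hira-null replicate 3. Differences within a line are an array minus the mean of the other 2 arrays of its line. All members were named, with Hira and, from each further list, genes among the 3 with the smallest unadjusted p. The members and lists were chosen with earlier results of these data known. P-values measure the spread between arrays called biological replicates by the labels, which do not say whether they were separate cultures, and their number limits the precision.

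Replicate numbers are shared by the lines, but the correlations of same-numbered arrays, as deviations from their line's mean, were -0.342, 0.173 and -0.099, so the numbers were not taken to pair the arrays. Alternatives covered the filter, scaling, variance model, array weights, a replicate block, arrays left out, probe set choice and the shift of chromosomes 8 and 11.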

Additional observations from a re-analysis of the deposited data

How the results depend on the processing

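No member passed an adjusted p under 0.05 with limma in the fit reported or in any of 17 alternatives (smallest adjusted p = 0.225), while 3 passed an unadjusted p under 0.05 in the fit reported. With the replicate block 2 did, and no adjusted call changed. Of 32 members, 18 kept the sign of their difference in all 17 alternatives. Xbp1 stayed between -1.01 and -0.54, at an unadjusted p under 0.05 in all 17, Phgdh in 14 and Edem1 in 11. Leaving out each array in turn gave 1 (without WT replicate 3) to 5 (without Hira-null replicate 3) members at that level, and an ATF4-branch median from -0.16 (without Hira-null replicate 3) to 0.20 (without WT replicate 3). With both WT replicate 1 and Hira-null replicate 3 left out, chosen for their distance from the rest, that median was -0.13.

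Other sign changes concerned members with small differences for their spread, and the cause was not tested. Leaving out 1 array gave ranges of -0.29 to 0.60 for Atf3, -0.26 to 1.72 for Ddit3, -0.06 to 0.31 for Shmt2, -0.41 to 0.87 for Slc7a3, -0.30 to 0.06 for Slc3a2 and -0.46 to 0.69 for Nupr1. The ranges were -0.10 to 0.13 for Gars, -0.03 to 0.24 for Wars, -0.01 to 0.16 for Hspa5, -0.07 to 0.13 for Hsp90b1, -0.20 to 0.02 for Calr and -0.07 to 0.35 for Dnajb9. With both arrays left out the differences were -0.17 for Atf3, -0.08 for Ddit3, -0.01 for Trib3, -0.32 for Nupr1, -0.07 for Gars and -0.09 for Wars. Array weights gave -0.04 for Atf3, -0.17 for Nupr1, -0.06 for Gars and -0.01 for Wars. Centring on the chromosome gave -0.02 for Hsp90b1 and 0.19 for Calr. With each array centred on its median, an alternative added after seeing the data, 8 of 12 ER-branch genes were above the other 2 arrays in WT replicate 3, against 5. The scanner signals behind the values were not used here, so no probe set could be set against its background.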
